A study of Mus musculus with 12 samples.

Results

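The retina of mice that lack *Otx2* in their photoreceptor lineage was compared with the control retina at P12, 12 days after birth, by whole-genome expression arrays. The control mice carried floxed *Otx2* alleles on both chromosomes and no Cre (otx2 flox/flox; Crx-Cre-), and the conditional knockout mice, called *Otx2* CKO, carried the same floxed alleles together with Crx-Cre (otx2 flox/flox; Crx-Cre+). The floxed alleles were thus shared by both groups, and Cre was present in one of them. Each group had 3 arrays of total RNA from whole retinas, numbered by experiment 1 to 3 in their titles, so that 6 of the 12 arrays of the study were used for the comparison. The remaining 6 arrays held the same genotypes at P1 and were used only for the difference between the ages. Cre was driven by the *Crx* promoter, which acts in postmitotic cells that become photoreceptors, and every other retinal cell type was measured in the same RNA. Neither the number of animals behind an array nor their sex is given in the sources used here, so the spread between arrays may be partly technical. The arrays were grouped by title, source name and genotype field. A free-text note of control array 3 and of all 3 *Otx2* CKO arrays at P12 names the other genotype, whereas the signals of *Otx2*, *Crx* and *Nrl*, given for each array in the results, were low in the 3 arrays titled *Otx2* CKO and high in the 3 titled control.

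*Otx2* is a homeodomain transcription factor that postmitotic retinal precursors switch on as they commit to the photoreceptor or bipolar fate. It turns on *Crx*, a closely related homeodomain factor, and both bind short DNA elements with a TAAT core in front of photoreceptor genes. Rods and cones carry the phototransduction cascade in an outer segment that grows out through a connecting cilium, and they pass the signal at a ribbon synapse to bipolar cells, while horizontal and amacrine cells are inhibitory interneurons. In whole-retina RNA, a change in the number of cells of a type and a change in RNA per cell cannot be told apart, which holds for every level given here. Levels are also relative to the other RNA of the same sample. A rise is thus a larger share and may not be an absolute gain, and the part that the loss of other RNA has in the rises was not tested.

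*Otx2* itself was far lower in the *Otx2* CKO retina. Its probe set had scaled signals of 1270.2, 1090.4 and 954 in the control and 165, 179 and 114 in the *Otx2* CKO arrays. Every *Otx2* CKO array lay below every control array, and some signal was left in each. The mean fell 7.24-fold from 1105 ± 159 to 153 ± 34.2 (SD, n = 3 each). Limma gave −2.75 for the log2 change, with SE 0.26 and adjusted p = 0.00126. Within experiments 1, 2 and 3 the log2 changes were −2.83, −2.51 and −2.90. Whether its probes read inside the deleted exons could not be told from the tables used here. A scaled signal is the deposited linear signal after the 6 arrays were brought to the same 2% trimmed mean. Log2 changes are differences of log2(signal + 16), which understates the change of dim probe sets, and a fold is the ratio of mean scaled signals, given only where both means were at least 50. The number of arrays limits the precision of every value.

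Whether more probe sets were lower or higher in the *Otx2* CKO retina depended on the fit. More passed as lower without the experiment number in the fit, and more as higher with it. Of 45037 probe sets other than spiked and housekeeping controls, 21106 had a mean scaled signal of at least 50 in either group and were tested. Limma called 774 lower (3.67%) and 368 higher (1.74%) at an adjusted p under 0.05. With the experiment number as a block it called 3171 lower (15.0%) and 4458 higher (21.1%), among them all 774 and all 368. In 11.5% of the tested probe sets every *Otx2* CKO array was below every control array, and in 12.9% every *Otx2* CKO array was above. A probe set that reached the limit in 1 group only was bound to be lower in the other, so counts and medians over the tested members of a gene list are given as descriptions beside these percentages. Block counts of every list stand against 15.0% lower and 21.1% higher, and those near these shares say nothing particular about a list. A gene is described by its brightest probe set with 1 gene symbol, unless the text says otherwise. Control array 2 resembled *Otx2* CKO array 2 (Pearson r of log2 signals 0.875 over the tested probe sets) more than control array 1 (0.765), and the 2 arrays of each experiment number deviated together from their group means. The arrays of a number also shared their level of ribosomal RNA. The 3′ probe set of 18S rRNA had scaled signals of 64.2 and 71.3 in experiment 1, 149 and 161 in experiment 2, and 745 and 721 in experiment 3. The part of RNA preparation in the results was not tested, and because each experiment holds both genotypes the block removes differences between experiments. Deposited arrays also differed in brightness, with a trimmed mean of 172 in *Otx2* CKO array 1 and 96.6 to 111 in the other 5. As deposited, without scaling, log2 changes had a median of 0.39 over the tested probe sets in place of 0.08, and limma called 438 lower and 377 higher. Calls of the fit without the block fell in both directions when 1 array was left out. Limma then called 344 lower and 64 higher without *Otx2* CKO array 3, and 342 and 72 without control array 3. It called 466 and 113 without *Otx2* CKO array 2, and 457 and 141 without *Otx2* CKO array 1. Without control array 1 it called 627 and 212, and without control array 2 753 and 347. Fits with an array left out did not use the block, so they leave differences between experiments in the error. Without both arrays of experiment 3 the unblocked test called no probe set in either direction, though 946 were lower and 558 higher before adjustment (p under 0.05).

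**Figure D1:**
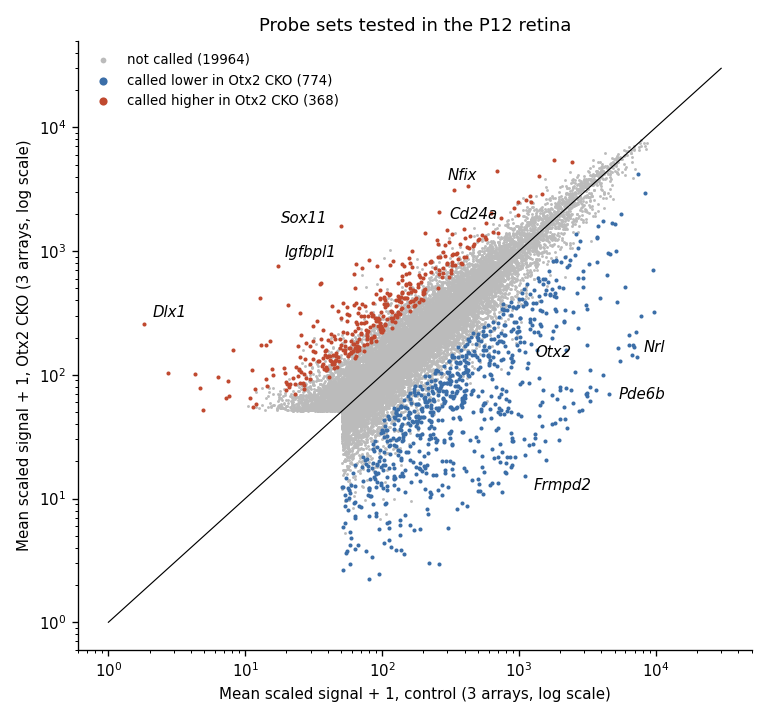
Each point is 1 of the 21106 tested probe sets, with its mean scaled signal plus 1 in the 3 control arrays (x axis, log scale) and in the 3 *Otx2* CKO arrays (y axis, log scale), and the line marks equal signals. The 774 probe sets called lower (blue) reach farther from the line than the 368 called higher (red), and 9 named genes are marked.

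The largest falls included genes of phototransduction, of its regulators and of bipolar cells. The 12 genes with the largest log2 changes among called probe sets whose arrays did not overlap were *Pde6b*, *Nxnl2*, *Crx*, *Aipl1*, *Rdh12*, *Tulp1*, *Pde6g*, *Frmpd2*, *Pcp2*, *Nrl*, *Mpp4* and *Samd11*, with log2 changes of −5.93 to −5.23. *Pde6b*, the beta subunit of the rod phosphodiesterase that hydrolyses cGMP in the light, had signals of 4313, 4998 and 4291 in the control and 106, 82.6 and 18.6 in the *Otx2* CKO arrays. Its mean fell 65.8-fold (log2 change −5.93, SE 0.46, adjusted p = 0.000599, limma). *Aipl1*, a chaperone that phosphodiesterase needs for its assembly, had 2038, 1908 and 2734 in the control and 35.1, 39.9 and 33.8 in the *Otx2* CKO arrays. *Frmpd2*, a gene with FERM and PDZ domains, had 1275, 804 and 1252 in the control and 32.1, 1.18 and 9.07 in the *Otx2* CKO arrays. *Nxnl2*, a thioredoxin-like gene needed by photoreceptors, had 1409, 2538 and 1920.0 in the control and 24.1, 48.1 and 14.1 in the *Otx2* CKO arrays. For all 12 genes each *Otx2* CKO signal was below 240 and each control signal above 800, and none lost its call when any 1 array was left out (adjusted p at most 0.00905 from limma).

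Most of the tested regulators of photoreceptor genes fell. Of 15 listed transcriptional regulators of photoreceptors that could be tested, 11 fell and none rose (11 lower and 0 higher with the block), against 3.67% lower among all tested probe sets, and their median log2 change was −2.37 against 0.08 for all. *Crx*, the homeodomain factor next to *Otx2* in the photoreceptor cascade, had signals of 2328, 4192 and 3364 in the control and 47.8, 88.6 and 44.5 in the *Otx2* CKO arrays, and fell 54.6-fold (log2 change −5.44, SE 0.33, adjusted p = 0.000277, limma). *Nrl*, the leucine zipper factor that sets the rod fate, had signals of 5983, 7667 and 6976 in the control and 194, 189.7 and 117 in the *Otx2* CKO arrays, and fell 41.2-fold (log2 change −5.26, SE 0.26, adjusted p = 0.000206). Both were below 200 in every *Otx2* CKO array. *Samd11* and *Samd7*, a pair of sterile alpha motif corepressors of rods, fell from 2176 ± 199 to 42.9 ± 9.52 and from 409 ± 53.2 to 15.7 ± 5.39 (SD, n = 3 each). *Esrrb*, an orphan nuclear receptor of rods, fell from 706 ± 264 to 20.7 ± 5.25, and *Ankrd33*, an ankyrin repeat cofactor of photoreceptors, from 1404 ± 180.0 to 45.05 ± 8.49 (SD, n = 3 each). *Pias3*, a SUMO ligase that modifies rod factors, fell 5.58-fold (log2 change −2.37, SE 0.31, adjusted p = 0.00556). *Neurod1*, a basic helix-loop-helix factor of photoreceptors and amacrine cells, varied between experiments, with signals of 4032, 851 and 1516 in the control and 467, 140.1 and 187 in the *Otx2* CKO arrays. Within each experiment *Neurod1* was lower in the *Otx2* CKO array, with log2 changes of −3.07, −2.47 and −2.91, and its fit gave adjusted p = 0.0481 from limma, and 0.0565 on signals as deposited, without the scaling used here. It lost this call without any 1 of 4 arrays (up to adjusted p = 0.203, without *Otx2* CKO array 3), and the list counted 9 falls without control array 3 or *Otx2* CKO array 3. *Rorb* and *Rora*, retinoid-related orphan receptors, did not pass the test (log2 change −0.13 and −0.52, adjusted p = 0.964 and 0.836), and 1 other probe set of *Rorb* and 2 of *Rora* had the opposite sign. Of the list, 3 genes were below the signal limit and 1 had no probe set named here.

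Among these lowered regulators, *Crx*, *Samd11*, *Samd7* and *Casz1*, a zinc finger factor of rods, hold the letters TAATCC on either strand in the RefSeq promoter window of GRCm38.p6, which runs from 250 bases before to 50 bases after a start site. TAATCC is the core that *Otx2* and *Crx* are known to bind. The 250 bases before the start are shown because they let a reader see how often and where the core stands in front of the regulators that fell. The windows lie at *Crx* chr7:15879956-15880205 (minus strand), *Samd11* chr4:156255343-156255592 (minus strand), *Samd7* chr3:30746043-30746292 (plus strand) and *Casz1* chr4:148889097-148889346 (plus strand), and each is written 5′ to 3′ along the gene with TAATCC or its reverse complement GGATTA in capitals.
Crx: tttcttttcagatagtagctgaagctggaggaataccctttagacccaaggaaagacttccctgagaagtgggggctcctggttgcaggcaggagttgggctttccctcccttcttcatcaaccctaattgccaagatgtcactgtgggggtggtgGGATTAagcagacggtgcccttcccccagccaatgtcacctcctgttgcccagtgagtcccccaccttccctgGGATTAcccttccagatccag
Samd11: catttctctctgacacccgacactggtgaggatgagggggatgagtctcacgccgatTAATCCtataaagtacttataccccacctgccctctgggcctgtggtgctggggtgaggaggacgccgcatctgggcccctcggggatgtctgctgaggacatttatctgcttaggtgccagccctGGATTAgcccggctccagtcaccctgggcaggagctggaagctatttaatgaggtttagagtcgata
Samd7: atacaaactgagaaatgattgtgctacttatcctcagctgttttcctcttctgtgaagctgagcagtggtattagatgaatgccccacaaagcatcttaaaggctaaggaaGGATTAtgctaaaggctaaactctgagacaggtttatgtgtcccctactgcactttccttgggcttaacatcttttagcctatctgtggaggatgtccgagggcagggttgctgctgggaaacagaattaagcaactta
Casz1: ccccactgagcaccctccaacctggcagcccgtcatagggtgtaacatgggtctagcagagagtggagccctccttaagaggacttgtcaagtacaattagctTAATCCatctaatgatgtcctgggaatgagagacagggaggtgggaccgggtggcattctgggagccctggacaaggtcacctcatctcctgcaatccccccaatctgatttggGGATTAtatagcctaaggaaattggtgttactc
The cores begin 94 and 21 bases before the start in *Crx*, 193 and 67 in *Samd11*, 139 in *Samd7* and 147 and 33 in *Casz1*. Of the 11 regulators called lower, 10 had a promoter in the RefSeq table and these 4 held the core, while *Nrl*, which fell as far, had no TAATCC in this window. Over all genes with a probe set called lower, 13.6% of 537 promoters held TAATCC, against 6.29% of 286 promoters of genes called higher, 5.62% of 11281 promoters of all genes tested and 7.06% of all 32851 promoters of the table. Among lowered genes of the rod, cone, outer segment and regulator lists it was 33.3% of 39 promoters. With the block, which calls more genes, the share among lowered genes was 8.21%. The shorter core TAATC, which every TAATCC contains, was in 26.6% of the promoters of lowered and 16.8% of raised genes, against 15.1% of those tested. TGCTGAC, part of the element that *Nrl* binds, was in 4.47% of the promoters of lowered genes, 3.85% of raised genes and 3.61% of genes tested. For *Casz1*, 1 of its 2 start sites in the table is shown. These shares describe letters in windows and were not tested, and genes with several start sites enter with each of them.

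Nearly all tested genes of phototransduction and of the outer segment fell. All 19 rod genes tested fell, with log2 changes of −5.93 to −2.06 and a median of −4.50 (−4.21, −4.45 and −5.03 within experiments 1, 2 and 3). Of 10 cone genes 7 fell (8 lower and 0 higher with the block), with a median of −3.62, and all 9 outer segment genes fell, with a median of −4.58. Below the signal limit were 0 of 21 rod, 0 of 11 cone and 1 of 12 outer segment genes, and 2, 1 and 2 had no probe set named here. The rod list counted 18 falls without *Otx2* CKO array 3, the outer segment list 8 without any 1 of 5 arrays, and the cone list 7 without any 1 array. *Pde6g*, the inhibitory subunit of rod phosphodiesterase, had signals of 5945, 7957 and 6489 in the control and 174, 234 and 106 in the *Otx2* CKO arrays. *Guca1b*, a calcium sensor that activates guanylate cyclase, had 1182, 3077 and 1689.8 in the control and 51.3, 60.05 and 18.3 in the *Otx2* CKO arrays, and *Cngb1*, a subunit of the rod cGMP-gated channel, had 1429, 2422 and 1648 in the control and 46.4, 44.5 and 27.9 in the *Otx2* CKO arrays. In each of these rod genes the highest *Otx2* CKO array lay more than 10-fold below the lowest control array. Among cone genes, *Opn1sw*, the short-wavelength opsin, had signals of 2159, 3516 and 2076 in the control and 77.8, 152 and 85.2 in the *Otx2* CKO arrays, and fell 24.6-fold (log2 change −4.43, SE 0.33, adjusted p = 0.000518, limma). *Opn1mw*, the middle-wavelength opsin, had signals of 620.5, 1453 and 747 in the control and 14.03, 30.2 and 18.3 in the *Otx2* CKO arrays. *Gnb3*, the cone transducin beta subunit, fell 26.4-fold, and *Pde6h*, the cone phosphodiesterase inhibitor, fell from 988 ± 563 to 47.3 ± 5.87 (SD, n = 3 each). *Slc24a2*, the cone sodium-calcium-potassium exchanger, was dim and did not pass the test (90.7 ± 59.1 and 65.7 ± 25.01, log2 change −0.25, adjusted p = 0.862). Nor did *Cngb3*, a cone channel subunit with a control mean of 54.98 ± 32.8 (log2 change −0.56, adjusted p = 0.559). Both differed in sign between experiments. Of the outer segment, *Rom1*, a disc rim tetraspanin, had signals of 3009, 4499 and 4897 in the control and 105, 112 and 79.8 in the *Otx2* CKO arrays, and *Tulp1*, a tubby-like protein of protein transport, had 2733, 4554 and 3711 in the control and 58.5, 101 and 63.8 in the *Otx2* CKO arrays. *Cdhr1*, a cadherin at the outer segment base, fell 32.6-fold (log2 change −4.92, SE 0.26, adjusted p = 0.000206), and *Rp1l1*, an axoneme protein, fell from 1189 ± 294 to 26.1 ± 12.3 (SD, n = 3 each).

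Some signal of these genes was left in every *Otx2* CKO array. Over the 19 lowered rod genes the median signal was 2.94%, 3.45% and 1.77% of the control mean in *Otx2* CKO arrays 1, 2 and 3. It was 4.64%, 5.34% and 3.30% for the 7 lowered cone genes and 2.81%, 2.72% and 1.93% for the 9 outer segment genes. For 11 lowered bipolar cell genes, described further on, it was 7.10%, 6.78% and 3.83%. Array 3 was the lowest of the 3 in each list. Gene by gene, the mean over the arrays ran from 1.52% to 23.3% in the rod list, from 2.21% to 6.62% in the cone list and from 1.93% to 38.2% in the bipolar list. The members were chosen by the fall itself, so these percentages are a description without a test, and background signal of the arrays is part of them.

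**Figure D2:**
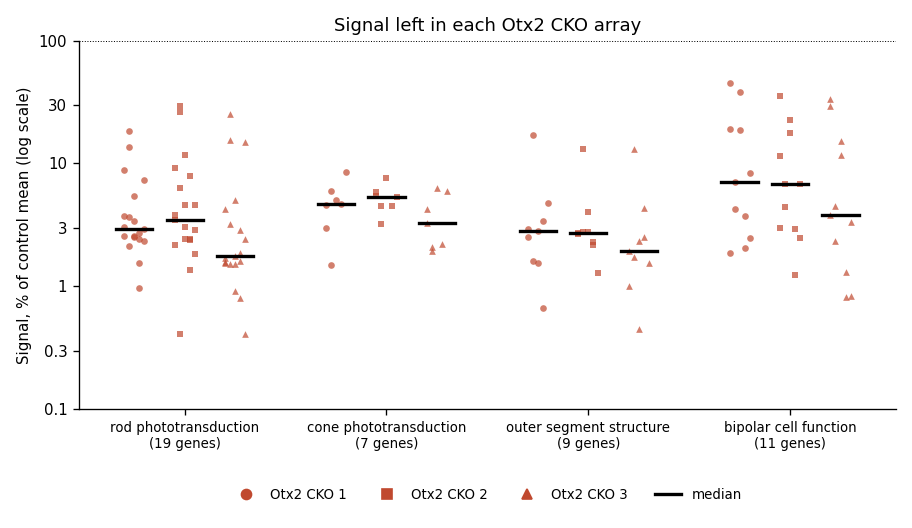
Each point is the scaled signal of 1 lowered gene in 1 *Otx2* CKO array as a percent of its mean over the 3 control arrays (y axis, log scale), for the rod, cone, outer segment and bipolar cell function lists, and black bars mark the median of an array. Medians lie between 1.77% and 7.10%, and *Otx2* CKO array 3 has the lowest in each list.

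Genes of the cilium, the visual cycle, the photoreceptor terminal and photoreceptor metabolism fell in part. Of 28 ciliary genes 10 fell and none rose (16 lower with the block, and 6 without *Otx2* CKO array 3), with a median log2 change of −1.01. *Mak*, a kinase that restrains the length of the photoreceptor cilium, had signals of 1481, 802 and 1629 in the control and 44.2, 20.6 and 31.97 in the *Otx2* CKO arrays, and *Unc119*, a carrier of acylated transducin, had 4976, 6717 and 6275 in the control and 410.5, 599 and 516 in the *Otx2* CKO arrays. *Unc119* fell 11.8-fold, by nearly the same amount in each experiment (−3.55, −3.45 and −3.56 on the log2 scale). *Rpgrip1*, the anchor of RPGR in the connecting cilium, fell from 876 ± 514 to 48.9 ± 17.7 (SD, n = 3 each), and *Bbs5*, a subunit of the BBSome, fell 6.30-fold. *Arl3* and *Pde6d*, which release and carry lipidated proteins, had log2 changes of −0.98 and −1.24 and were called only with the block (adjusted p = 0.219 and 0.0935 without it, 7.81e-05 and 4.87e-05 with it). In the visual cycle, *Rdh12*, a retinol dehydrogenase of photoreceptors, and *Rbp3*, the retinoid-binding protein of the space around the outer segments, were the 2 of 10 genes that fell (4 lower and 3 higher with the block), and none rose. The list counted 1 rise as deposited, with quantile normalization or with spike scaling, of *Crabp1*, a retinoic acid binding protein, which was chosen after its values were seen (adjusted p = 0.0576 after the trimmed-mean scaling). Spike scaling sets each array by its hybridization spikes, and median scaling by its median signal. *Rbp3* had signals of 5330.1, 7361 and 6503 in the control and 178, 214 and 123 in the *Otx2* CKO arrays, and *Rdh12* had 1804, 4148 and 2238 in the control and 43.8, 78.4 and 26.6 in the *Otx2* CKO arrays. Not every gene of the list moved down. *Rlbp1*, the retinaldehyde carrier of Muller glia and pigment epithelium, had a log2 change of 0.50 (adjusted p = 0.499, 0.00817 with the block) and *Rdh10*, a retinol dehydrogenase, 0.46 (adjusted p = 0.506, 0.0276 with the block).

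At the photoreceptor terminal, 10 of 20 genes fell and none rose (14 lower and 3 higher with the block), with a median log2 change of −1.44. *Mpp4*, a scaffold of the terminal membrane, had signals of 3264, 3247 and 2785 in the control and 90.4, 72.4 and 43.5 in the *Otx2* CKO arrays. *Slc17a7*, the vesicular glutamate transporter of photoreceptors and bipolar cells, had 1512, 1976 and 1181 in the control and 30.1, 32.00 and 22.7 in the *Otx2* CKO arrays, and fell below 50 in each *Otx2* CKO array. *Cabp4*, a calcium sensor of the presynaptic calcium channel, fell from 631 ± 321 to 12.4 ± 4.16, and *Cplx4*, the complexin of photoreceptor terminals, from 871 ± 95.8 to 32.7 ± 7.87 (SD, n = 3 each). *Cplx3*, a complexin also made by amacrine cells, had means of 1952 ± 603 and 1526 ± 294 (log2 change −0.32, adjusted p = 0.664, 0.0443 with the block). *Syp*, the synaptic vesicle protein of ribbon and conventional synapses, had a log2 change of −1.14 (adjusted p = 0.0621, 3.85e-05 with the block). Of 6 tested ion channels and pumps, of 10 listed, 4 fell (5 lower and 0 higher with the block). *Kcnj14* and *Kcne2*, potassium channel subunits, fell from 791 ± 346 to 15.5 ± 2.49 and from 511 ± 105 to 12.1 ± 2.38, and *Kcnv2*, a subunit of the inner segment potassium channel, fell 14.7-fold. *Atp1b2*, a sodium pump subunit shared with glia and other neurons, fell 2.88-fold (adjusted p = 0.0164, limma). *Slc12a5*, a neuronal chloride transporter, had a log2 change of −0.63 (adjusted p = 0.276, 0.00112 with the block), and *Clcn3*, a chloride-proton exchanger, −0.09 (adjusted p = 0.946). With an array left out, calls were lost for *Atp1b2* without any 1 of 3 arrays (up to adjusted p = 0.102, without control array 3).

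Of 22 genes of photoreceptor energy supply 6 fell and none rose (16 lower and 1 higher with the block), with a median log2 change of −0.60. *Ldha*, the lactate dehydrogenase subunit that serves the aerobic glycolysis of photoreceptors, had signals of 4925, 6493 and 5302 in the control and 1601, 2411 and 1955 in the *Otx2* CKO arrays. It fell 2.80-fold (log2 change −1.49, SE 0.22, adjusted p = 0.00996, limma), and its groups did not overlap. *Pygm*, a glycogen phosphorylase, fell from 220.4 ± 61.4 to 42.3 ± 3.39 and *Nxnl1*, which encodes the rod-derived cone viability factor, from 187 ± 37.3 to 4.70 ± 2.40 (SD, n = 3 each). *Aldoa*, a glycolytic aldolase of all cells, had a log2 change of −0.75 (adjusted p = 0.448, 0.000266 with the block), and *Ckb*, brain creatine kinase, had means of 4229 ± 973 and 3808 ± 835 (log2 change −0.15, adjusted p = 0.839). Of 13 genes of long-chain fatty acid and phospholipid synthesis 6 fell and none rose (8 lower and 3 higher with the block). *Cds1*, a CDP-diacylglycerol synthase, fell 9.51-fold, *Agpat3* and *Adipor1*, needed for docosahexaenoic acid lipids, 3.69-fold and 3.53-fold, and *Elovl4*, an elongase of very long fatty acids, 2.58-fold. *Elovl5*, an elongase with a wide tissue range, was higher in each experiment (0.83, 1.13 and 1.20 on the log2 scale), with adjusted p = 0.057, and 0.000179 with the block, while *Cds2* had a log2 change of −0.37 (adjusted p = 0.491, 0.0232 with the block). Among 14 clock and melatonin genes 1 fell (2 lower and 0 higher with the block), *Drd4*, the dopamine receptor of photoreceptors, with signals of 1457, 2489 and 3233 in the control and 40.7, 114 and 67.3 in the *Otx2* CKO arrays. *Dbp*, an output gene of the clock, had a log2 change of −0.27 (adjusted p = 0.863, 0.1 with the block) and *Nr1d2*, a clock repressor, 0.13 (adjusted p = 0.952). Calls were lost for *Pygm* without control array 3 (adjusted p = 0.0517), *Ldha* without any 1 of 2 arrays (up to adjusted p = 0.0723, without control array 3), *Agpat3* without any 1 of 2 arrays (up to adjusted p = 0.0681, without *Otx2* CKO array 3), *Adipor1* without any 1 of 4 arrays (up to adjusted p = 0.139, without *Otx2* CKO array 3) and *Elovl4* without any 1 of 4 arrays (up to adjusted p = 0.115, without *Otx2* CKO array 3), the energy list counted 2 falls without control array 3 and the fatty acid list 1 without control array 3 or *Otx2* CKO array 3. The fatty acid list counted 2 falls as deposited and 1 with median scaling, and the energy list 3 falls with median scaling. Calls also ended for *Adipor1* as deposited (adjusted p = 0.102) and *Elovl4* as deposited (adjusted p = 0.153).

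Bipolar cell genes fell as well. Of 8 transcription factors of bipolar cells 5 fell and none rose (6 lower and 1 higher with the block), and of 16 genes of bipolar cell function 11 fell and none rose (13 lower and 0 higher with the block), with median log2 changes of −2.52 and −2.13. *Isl1*, a LIM homeodomain factor of ON bipolar and cholinergic amacrine cells, had signals of 1419, 1652 and 2208 in the control and 168, 294 and 217 in the *Otx2* CKO arrays, and fell 7.78-fold (log2 change −2.88, SE 0.29, adjusted p = 0.00177, limma). *Vsx1*, a homeodomain factor of cone bipolar cells, had 173, 259 and 241 in the control and 13.02, 15.5 and 2.22 in the *Otx2* CKO arrays, and *Lhx4*, a LIM homeodomain factor of cone bipolar cells, 101, 119.6 and 124 in the control and 3.17, 2.57 and 3.48 in the *Otx2* CKO arrays. *Bhlhe23*, a basic helix-loop-helix factor of rod bipolar cells, fell from 74.7 ± 12.2 to 2.74 ± 2.46, and *Sebox*, a homeobox gene, from 551 ± 234 to 42.9 ± 13.9 (SD, n = 3 each). The groups did not overlap for any of these 5 genes, and each kept its call without any 1 array. *Prdm8*, a zinc finger factor of rod and OFF bipolar cells that amacrine cells also express, had higher means in the *Otx2* CKO arrays, with 495 ± 70.6 and 752 ± 122 (log2 change 0.59, adjusted p = 0.245, 0.0187 with the block). *Irx5*, an Iroquois factor of OFF bipolar cells, had a log2 change of 0.14 (adjusted p = 0.877). *Pcp2*, a G protein regulator of ON bipolar cells, had signals of 2277, 4115 and 3004 in the control and 64.7, 91.6 and 41.4 in the *Otx2* CKO arrays, and *Cabp5*, a calcium sensor of bipolar cells, had 728, 954 and 949.6 in the control and 21.7, 21.8 and 7.28 in the *Otx2* CKO arrays. *Gabrr1*, the GABA-C receptor subunit of bipolar terminals, fell from 610.1 ± 267 to 11.8 ± 9.77, and *Gng13*, a G protein gamma subunit of ON bipolar cells, from 728 ± 398 to 26.8 ± 8.43 (SD, n = 3 each). *Prkca*, protein kinase C alpha of rod bipolar cells, was lower within each experiment (−1.45, −1.51 and −1.65 on the log2 scale) and was called with the block alone (adjusted p = 0.114 without and 1.59e-05 with it). *Gnao1*, a G protein alpha subunit that many neurons share, had a log2 change of −0.30 (adjusted p = 0.565, 0.0551 with the block). The bipolar function list counted 8 falls without control array 3, *Otx2* CKO array 2 or *Otx2* CKO array 3.

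**Figure D3:**
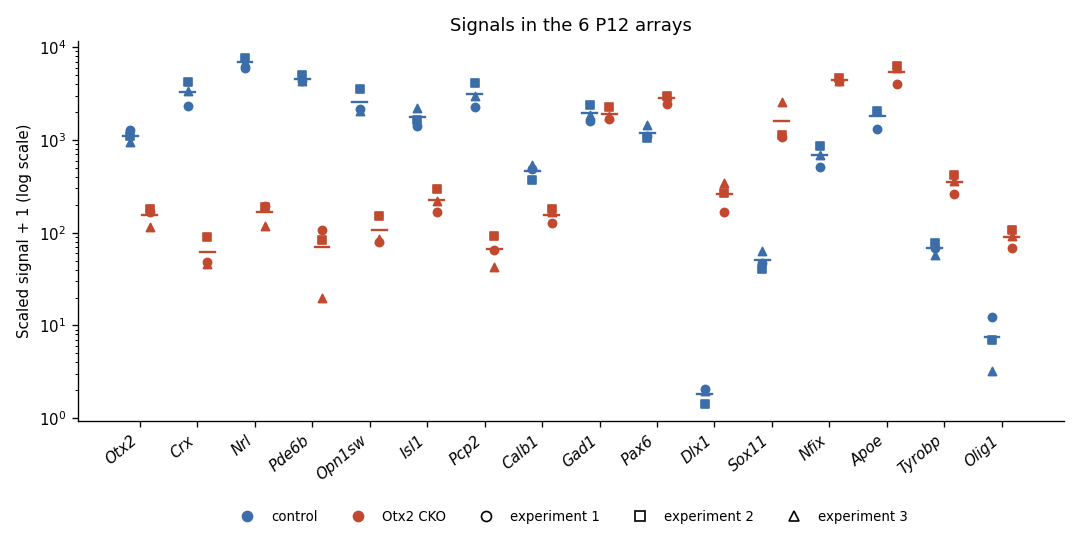
Scaled signals plus 1 (y axis, log scale) of 16 genes in the 3 control (blue) and 3 *Otx2* CKO arrays (red) at P12, with the experiment number as the symbol and a bar at the group mean. Control and *Otx2* CKO arrays do not overlap for any of the genes but *Gad1*, whose means were 1944 and 1914.

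Several transcription factors of amacrine cells rose. Of 14 transcription factors of amacrine cells 4 rose and none fell, against 1.74% higher among all probe sets, and with the block 11 rose, against 21.1%. Their median log2 change was 0.95 (0.92, 0.96 and 0.59 within experiments 1, 2 and 3). *Pax6*, the paired homeodomain factor of amacrine and ganglion cells, had signals of 1097, 1048 and 1434 in the control and 2454, 3009 and 2954 in the *Otx2* CKO arrays, and rose 2.35-fold (log2 change 1.23, SE 0.22, adjusted p = 0.0195, limma). *Tfap2c*, an AP-2 factor of amacrine cells, had 139.5, 309 and 170.0 in the control and 831, 941 and 603 in the *Otx2* CKO arrays, and *Ebf3*, a helix-loop-helix factor of glycinergic amacrine cells, 225, 168 and 283 in the control and 950.4, 733 and 826 in the *Otx2* CKO arrays. *Satb1*, a chromatin organizer, rose 2.96-fold. In these 4 genes every *Otx2* CKO array was above every control array. *Tfap2b*, another AP-2 factor, and *Neurod4*, a proneural factor, had log2 changes of 0.39 and 0.79 (adjusted p = 0.467 and 0.493, 0.0192 and 0.00812 with the block). Of 18 transmitter and protein genes of amacrine cells 1 rose (10 with the block) and none fell, with a median of 0.49. This gene was *Dab1*, the reelin adaptor of AII amacrine cells, which rose 2.44-fold (log2 change 1.21, SE 0.26, adjusted p = 0.0441). *Gad1*, the main enzyme of GABA synthesis, had signals of 1590.1, 2384 and 1857 in the control and 1665, 2269 and 1807 in the *Otx2* CKO arrays, and *Calb2*, calretinin, had 2202, 3447 and 2690.3 in the control and 2114, 3566 and 2735 in the *Otx2* CKO arrays. Both genes overlapped nearly fully between the groups, with log2 changes of −0.01 (SE 0.24) and 0.00 (SE 0.27). As deposited, with quantile normalization and with median scaling the change of *Gad1* had the opposite sign. *Gad2*, the second enzyme of GABA synthesis, had 203, 48.2 and 90.1 in the control and 481, 133 and 199.9 in the *Otx2* CKO arrays, and was called with the block alone (log2 change 1.14, adjusted p = 0.358 without and 0.000275 with it). *Slc6a9*, the glycine transporter of amacrine cells and glia, had 673, 735 and 512 in the control and 1259, 1196 and 1189 in the *Otx2* CKO arrays, and was also called with the block alone (log2 change 0.92, adjusted p = 0.0645 and 0.00044). Calls that ended with 1 array left out were those of *Pax6* without any 1 of 5 arrays (up to adjusted p = 0.128, without *Otx2* CKO array 3), *Tfap2c* without any 1 of 4 arrays (up to adjusted p = 0.116, without control array 3), *Ebf3* without *Otx2* CKO array 3 (adjusted p = 0.0612), *Satb1* without any 1 of 5 arrays (up to adjusted p = 0.157, without *Otx2* CKO array 3) and *Dab1* without any 1 of 6 arrays (up to adjusted p = 0.194, without *Otx2* CKO array 3). Without *Otx2* CKO array 3 no amacrine factor was called. The list of factors counted 2 rises with median scaling, and the list of transmitters and proteins 0 rises as deposited, with median scaling or with spike scaling and 2 with quantile normalization. *Dab1* had adjusted p = 0.0609 as deposited.

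*Dlx1* and *Dlx2* rose from the floor of the arrays. *Dlx1* and *Dlx2*, neighbouring homeobox genes that specify inhibitory interneurons in the forebrain and act in early retinal precursors, had control signals below 15. *Dlx1* had signals of 1.08, 0.416 and 0.951 in the control and 166, 265 and 344 in the *Otx2* CKO arrays (log2 change 3.97, SE 0.31, adjusted p = 0.000603, limma), and *Dlx2* had 13.8, 10.7 and 6.18 in the control and 102, 112 and 109 in the *Otx2* CKO arrays (log2 change 2.25, SE 0.26, adjusted p = 0.00314). Both kept their calls without any 1 array, and no fold is given since the control means were below the signal limit. The other 5 listed genes of this kind with a probe set, among them *Dlx3*, *Dlx4*, *Dlx5* and *Dlx6*, were below the signal limit in both groups. Of 23 receptor subunits for GABA, glycine, glutamate and acetylcholine 2 rose and none fell. With the block 12 were higher and 1 lower, against 21.1% and 15.0% of all probe sets. *Glra2*, a glycine receptor subunit, rose 4.83-fold from 73.8 ± 34.9 to 356 ± 131, and *Chrna3*, a nicotinic receptor subunit, 4.27-fold from 94.9 ± 37.3 to 405 ± 26.4 (SD, n = 3 each). The AMPA receptor subunits *Gria4* and *Gria2* varied more between experiments than between genotypes, with control signals of 648, 120.3 and 347 and 590.1, 40.7 and 263. Within experiments they were higher in the *Otx2* CKO array by 1.16, 1.60 and 1.06 and by 0.93, 1.90 and 0.74 on the log2 scale (adjusted p = 0.376 and 0.589, 0.000115 and 0.00185 with the block). When 1 array was left out, calls were lost for *Glra2* without any 1 of 4 arrays (up to adjusted p = 0.102, without *Otx2* CKO array 3) and *Chrna3* without any 1 of 2 arrays (up to adjusted p = 0.061, without control array 3).

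A few horizontal cell genes moved, and no ganglion cell gene was called. Of 7 horizontal cell genes 2 fell and none rose, and with the block 3 fell and 4 rose. The median log2 change of the list was 0.71. The summed signal of the 3 horizontal cell markers *Lhx1*, *Onecut1* and *Calb1* went the other way. It was 444 to 635 in the control arrays and 128 to 193 in the *Otx2* CKO arrays, without overlap. Most of this sum was *Calb1* (means 464 and 156), which some amacrine cells also make, and *Onecut1* was below the signal limit (means 26.1 and 6.83). *Calb1*, the calcium buffer calbindin of horizontal cells and some amacrine cells, had signals of 486, 368 and 539 in the control and 125, 177 and 165 in the *Otx2* CKO arrays, and fell 2.98-fold (log2 change −1.48, SE 0.26, adjusted p = 0.0179, limma). *Lhx1*, the LIM homeodomain factor that positions horizontal cells, was dim, with 53.1, 68.1 and 67.5 in the control and 1.55, 13.6 and 9.92 in the *Otx2* CKO arrays (log2 change −1.72, SE 0.32, adjusted p = 0.0239). Both were lower in every *Otx2* CKO array, and both lost their calls when arrays were left out, *Calb1* without any 1 of 4 arrays (up to adjusted p = 0.107, without control array 3) and *Lhx1* without any 1 of 6 arrays (up to adjusted p = 0.134, without control array 3). The list counted 0 falls as deposited and 1 with median scaling. As deposited *Calb1* had adjusted p = 0.0779 and *Lhx1* 0.0661. *Prox1*, a homeodomain factor of horizontal, AII amacrine and bipolar cells, was higher in each experiment (0.95, 1.08 and 1.05 on the log2 scale, adjusted p = 0.341, 0.000323 with the block), and *Sept4*, a septin, was lower in each (−0.59, −0.97 and −0.78, adjusted p = 0.291, 0.00078 with the block). None of 12 ganglion cell genes was called in either direction, and the median log2 change was 0.32. With the block 3 were higher and 1 lower, against 21.1% and 15.0% of all probe sets. *Nefl*, the neurofilament light chain of ganglion cell axons, had means of 2434 ± 470.1 and 2965 ± 842, and *Thy1*, a surface protein of ganglion cells, 867 ± 399 and 1147 ± 417 (SD, n = 3 each). Limma gave adjusted p = 0.689 for *Nefl* and 0.688 for *Thy1*, with 0.0159 for *Thy1* under the block.

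The 12 genes with the largest rises among called probe sets whose arrays did not overlap were *Igfbpl1*, *Sox11*, *Dlx1*, *Lyz1*, *Klhl35*, *Pdzrn3*, *Nfib*, *Nfix*, *Car3*, *Rag1*, *Cd24a* and *Dcx*, with log2 changes of 4.61 to 2.79. Several of them are genes of young neurons. Of 27 genes of growing and immature neurons 9 rose and none fell, against 1.74% of all probe sets, and with the block 25 rose, against 21.1%. Their median log2 change was 1.13, with 1.29, 1.12 and 1.05 in experiments 1, 2 and 3. *Igfbpl1*, an insulin-like growth factor binding protein relative of newborn neurons, had signals of 6.24, 31.4 and 11.1 in the control and 498, 1034 and 751 in the *Otx2* CKO arrays (log2 change 4.61, SE 0.38, adjusted p = 0.000759, limma). *Sox11*, an HMG box factor of postmitotic precursors, had 46.2, 39.5 and 62.1 in the control and 1088, 1116 and 2549.9 in the *Otx2* CKO arrays (log2 change 4.51, SE 0.37, adjusted p = 0.000743). *Cd24a*, a surface protein of differentiating neurons, had 279, 235 and 268 in the control and 1855, 2297 and 2017 in the *Otx2* CKO arrays, and rose 7.90-fold. The 3 genes kept their calls without any 1 array, and in each the lowest *Otx2* CKO array was more than 6-fold above the highest control array. *Nhlh2*, a helix-loop-helix factor of newborn neurons, rose 5.01-fold from 297 ± 98.4 to 1487 ± 382 (SD, n = 3 each), and lost its call without control array 3 (adjusted p = 0.0519), when the list counted 5 rises. *Basp1* and *Stmn1*, a growth cone protein and a tubulin-binding protein, had log2 changes of 0.57 and 0.67 (adjusted p = 0.242 and 0.177, 0.00279 and 0.000401 with the block). *Dcx*, the microtubule protein doublecortin of migrating neurons, varied between experiments, with signals of 116, 16.3 and 53.7 in the control and 799, 223 and 490.1 in the *Otx2* CKO arrays on the probe set of its largest change (log2 change 2.79, SE 0.61, adjusted p = 0.0443). Within the experiments it was higher by 2.62, 2.88 and 2.86. Its brightest probe set was called with the block alone (adjusted p = 0.0539 without and 5.23e-07 with it), and the former lost its call without any 1 of 4 arrays (up to adjusted p = 0.182, without *Otx2* CKO array 3). The list of growing and immature neurons counted 15 rises as deposited and 19 with quantile normalization.

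The nuclear factor I family, factors of late retinal precursors, glia and interneurons, was measured by 4 genes, of which 1 rose and none fell (1 lower and 3 higher with the block). *Nfix* had signals of 513, 852 and 696 in the control and 4307, 4686 and 4303 in the *Otx2* CKO arrays on its brightest probe set, and rose 6.45-fold (log2 change 2.69, SE 0.24, adjusted p = 0.000964, limma). *Nfib* had 166, 30.1 and 109.7 in the control and 1492, 305 and 840.4 in the *Otx2* CKO arrays, with *Otx2* CKO array 2 about as far below the other 2 as control array 2 was below its own. Its differences within experiments were 3.05, 2.80 and 2.77, and the brightest probe set was called with the block alone (adjusted p = 0.0583 without and 3.96e-07 with it), while the probe set of its largest change rose 10.7-fold (adjusted p = 0.0218), a call that was lost without any 1 of 3 arrays (up to adjusted p = 0.112, without *Otx2* CKO array 3). The family counted 2 rises as deposited, with quantile normalization or with median scaling. *Nfic* had a log2 change of −0.71 (adjusted p = 0.461, 0.00292 with the block). Of 11 Sox genes 2 rose and none fell (1 lower and 3 higher with the block, near the 15.0% and 21.1% of all probe sets). Besides *Sox11* this was *Sox4*, its close relative, with signals of 1881, 2255 and 3206 in the control and 4866, 5341 and 5539 in the *Otx2* CKO arrays (log2 change 1.13, SE 0.23, adjusted p = 0.036), which lost its call without any 1 array (up to adjusted p = 0.187, without *Otx2* CKO array 3). *Sox2*, the factor of progenitors, Muller glia and some amacrine cells, had a log2 change of 1.01 (adjusted p = 0.13, 0.00065 with the block), and *Sox12* of 0.17 (adjusted p = 0.874). The Sox genes counted 1 rise with median scaling. The other large rises were of *Klhl35*, a kelch-like gene, with signals of 26.4, 13.4 and 18.4 in the control and 273, 432 and 382 in the *Otx2* CKO arrays, *Pdzrn3*, a ubiquitin ligase, *Car3*, a carbonic anhydrase, *Rag1*, the recombinase gene of lymphocytes that some neurons transcribe, and *Lyz1*, a lysozyme of phagocytes. *Pdzrn3* had 53.2, 60.7 and 76.6 in the control and 774, 762 and 817 in the *Otx2* CKO arrays, and *Car3* had 36.9, 52.7 and 93.99 in the control and 458, 709.9 and 799.6 in the *Otx2* CKO arrays. *Rag1* had 15.1, 0.624 and 5.70 in the control and 175, 112 and 188 in the *Otx2* CKO arrays and *Lyz1* 17.2, 45.4 and 42.1 in the control and 289, 814 and 564 in the *Otx2* CKO arrays, and *Lyz1* was read by a probe set whose probes can also match related genes. The groups of these 5 genes did not overlap, their log2 changes ran from 2.93 to 3.43, and they kept their calls without any 1 array.

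Of 29 genes of axon guidance and adhesion 5 rose and 1 fell, with a median log2 change of 0.49. With the block 17 rose and 4 fell, against 21.1% and 15.0% of all probe sets. *Nrp2* and *Nrp1*, the neuropilin receptors of semaphorins, rose 4.32-fold and 3.28-fold, *Slit1*, a repellent ligand of Robo receptors, 3.31-fold, and *Efnb2*, an ephrin, 2.90-fold. *Nrp2* had signals of 78.3, 100.1 and 109.9 in the control and 436, 357 and 451 in the *Otx2* CKO arrays and kept its call without any 1 array. *Plxna2*, a plexin, fell 2.57-fold, with 1249, 731 and 1148 in the control and 426, 311 and 478 in the *Otx2* CKO arrays. *Ncam1* and *Cntn1*, adhesion molecules of axons, had log2 changes of 0.49 and 0.77 (adjusted p = 0.462 and 0.487, 0.00599 and 0.00135 with the block). Calls were lost for *Nrp1* without any 1 of 5 arrays (up to adjusted p = 0.162, without *Otx2* CKO array 3), *Slit1* without any 1 of 3 arrays (up to adjusted p = 0.0784, without control array 3), *Efnb2* without any 1 of 5 arrays (up to adjusted p = 0.18, without *Otx2* CKO array 3) and *Plxna2* without any 1 of 5 arrays (up to adjusted p = 0.212, without control array 3), and without control array 3 or *Otx2* CKO array 3 the list counted 1 rise. It counted 2 rises with median scaling and 3 with spike scaling, and 0 falls as deposited, with quantile normalization, with median scaling or with spike scaling. *Plxna2* was not called as deposited (adjusted p = 0.187) or with quantile normalization (adjusted p = 0.059).

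Progenitor genes were mixed. Of 22 genes of retinal progenitors and neurogenesis 2 rose and 1 fell (11 and 4 with the block, against 21.1% and 15.0% of all probe sets). *Neurog2*, a proneural factor, had signals of 50.1, 65.8 and 47.8 in the control and 242, 311 and 253 in the *Otx2* CKO arrays, and rose 4.93-fold (log2 change 2.01, SE 0.23, adjusted p = 0.00314, limma). *Jag1*, a Notch ligand, had 319, 625 and 666 in the control and 70.9, 73.6 and 76.2 in the *Otx2* CKO arrays, and fell 7.29-fold (log2 change −2.56, SE 0.32, adjusted p = 0.00435). *Notch1* rose 2.40-fold (log2 change 1.19, SE 0.25, adjusted p = 0.0351). *Six6*, an eye-field homeobox gene, had a log2 change of 0.93 (adjusted p = 0.203, 0.000334 with the block), and *Insm1*, a zinc finger factor of newborn neurons, of 0.12 (adjusted p = 0.942). Most genes of cell division were too dim to test, 14 of the 25 listed genes. Of the 10 tested, 3 rose and 1 fell with the block, near the shares of all probe sets. Without it 1 rose, *Mcm7*, a subunit of the replication helicase, which had signals of 232, 385 and 349 in the control and 844, 1054 and 870.5 in the *Otx2* CKO arrays. *Pcna*, the sliding clamp of DNA polymerase, had means of 1237 ± 243 and 1161 ± 274 (SD, n = 3 each, adjusted p = 0.908), and *Cdk4*, a kinase of cell cycle entry, a log2 change of 1.28 (adjusted p = 0.0559, 8.33e-05 with the block). Calls that ended with 1 array left out were those of *Notch1* without any 1 of 5 arrays (up to adjusted p = 0.173, without control array 3) and *Mcm7* without any 1 of 4 arrays (up to adjusted p = 0.105, without *Otx2* CKO array 3). The progenitor list counted 1 rise with median scaling, and the list of cell division 2 rises as deposited and 0 with median scaling.

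Microglial genes were higher in every experiment. Of 13 microglial genes tested 6 rose and none fell, and with the block all 13 rose. Their median log2 change was 1.57 (1.59, 1.62 and 1.61 within experiments 1, 2 and 3). In all 13 the arrays of the groups did not overlap, against 12.9% higher without overlap among all probe sets tested. This count is a description only. Members dim in the control, such as *Aif1* (means 18.7 and 86.6), passed the signal limit through the *Otx2* CKO arrays alone. The list was also chosen with earlier results of these data known. *Tyrobp*, an adaptor of microglial receptors, had signals of 66.9, 76.5 and 56.3 in the control and 262, 419 and 361 in the *Otx2* CKO arrays, and rose 5.22-fold (log2 change 2.12, SE 0.26, adjusted p = 0.00398, limma). *C1qa*, *C1qb* and *C1qc*, the chains of complement C1q, rose 6.11-fold, 4.98-fold and 5.94-fold. *C1qa* had signals of 94.1, 117 and 78.1 in the control and 329, 929.7 and 512 in the *Otx2* CKO arrays, with *Otx2* CKO array 2 the highest. *Csf1r*, the receptor that keeps microglia alive, had 303, 626 and 473 in the control and 791, 1737 and 1476 in the *Otx2* CKO arrays (adjusted p = 0.0835, 1.25e-05 with the block), and *Cx3cr1*, the fractalkine receptor of microglia, rose with the block alone (adjusted p = 0.0683 without and 0.000275 with it). The summed signal of the 4 defining microglial markers *Cx3cr1*, *P2ry12*, *Csf1r* and *Aif1* was 433 to 724 in the control and 1088 to 2102 in the *Otx2* CKO arrays. Of 18 genes of activated microglia and lysosomes 4 rose and none fell (16 with the block), with a median of 0.95. *Lyz2*, a lysozyme, had 69.9, 47.6 and 50.3 in the control and 216, 388 and 298 in the *Otx2* CKO arrays, and rose 5.38-fold (log2 change 2.12, SE 0.28, adjusted p = 0.00594). *Cst7*, a cystatin of activated microglia, rose from 5.33 ± 4.13 to 95.3 ± 44.7, *Cd68*, a lysosomal membrane protein, from 31.1 ± 12.8 to 153 ± 40.2, and *Ctss*, the cathepsin of phagocytes, from 393 ± 52.1 to 901 ± 206 (SD, n = 3 each). *Ctsb* and *Ctsl*, cathepsins of all cells, had log2 changes of 0.38 and 0.10 (adjusted p = 0.617 and 0.918, 0.0117 for *Ctsb* with the block). When 1 array was left out, calls were lost for *C1qc* without any 1 of 3 arrays (up to adjusted p = 0.0973, without *Otx2* CKO array 3), *C1qa* without any 1 of 2 arrays (up to adjusted p = 0.0961, without control array 3), *C1qb* without any 1 of 4 arrays (up to adjusted p = 0.157, without *Otx2* CKO array 3), *Cst7* without any 1 of 3 arrays (up to adjusted p = 0.0707, without *Otx2* CKO array 3), *Cd68* without any 1 of 3 arrays (up to adjusted p = 0.107, without *Otx2* CKO array 3) and *Ctss* without any 1 of 5 arrays (up to adjusted p = 0.186, without control array 3), and without control array 3 or *Otx2* CKO array 3 the microglial list counted 2 rises.

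Few tested genes of antigen presentation rose, and no interferon response gene was called. Of 7 tested genes of antigen presentation and complement 2 rose and none fell (0 lower and 3 higher with the block), and 10 were below the signal limit. *Cd1d1*, which presents lipid antigens, had signals of 90.4, 84.2 and 72.8 in the control and 349, 333 and 266 in the *Otx2* CKO arrays, and rose 3.83-fold (log2 change 1.75, SE 0.23, adjusted p = 0.00519, limma), while *Serping1*, the C1 inhibitor, rose from 43.9 ± 5.64 to 113 ± 23.2 (SD, n = 3 each). *B2m*, the light chain of class I molecules, was higher by nearly the same amount in each experiment (1.42, 1.42 and 1.44 on the log2 scale, adjusted p = 0.0521, 3.07e-05 with the block). *H2-K1*, a class I heavy chain, had a log2 change of −0.22 (adjusted p = 0.768), and 1 other probe set of it had the opposite sign. None of 6 interferon response genes was called in either direction, and with the block 1 was lower. *Ifitm3*, an interferon-induced membrane protein, had means of 129 ± 54.1 and 97.7 ± 25.4 (SD, n = 3 each, adjusted p = 0.717). Calls were lost for *Serping1* without any 1 of 6 arrays (up to adjusted p = 0.225, without *Otx2* CKO array 3), and with quantile normalization (adjusted p = 0.111). The list counted 1 rise with quantile normalization, with median scaling or with spike scaling.

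Genes of Muller glia, the main glial cells of the retina, were called in few cases. Of 23 tested 2 rose and none fell, and with the block 15 rose, against 21.1% of all probe sets. Their median log2 change was 0.64. *Apoe*, the lipid carrier of glia and microglia, had signals of 1321, 2057 and 2042 in the control and 4016, 6259 and 5991 in the *Otx2* CKO arrays, and rose 3.001-fold, by 1.59, 1.60 and 1.55 on the log2 scale within the experiments (adjusted p = 0.0175, limma). *Hes5*, a target of Notch signalling, rose 2.79-fold (log2 change 1.22, SE 0.27, adjusted p = 0.0464). *Car2*, carbonic anhydrase of Muller glia and some neurons, had 3656, 4112 and 4312 in the control and 3402, 4562 and 3821 in the *Otx2* CKO arrays, and the groups overlapped (log2 change −0.04, SE 0.19). *Glul*, the glutamine synthetase of Muller glia, had 2972, 5220.3 and 3946 in the control and 3369, 5294 and 3689.8 in the *Otx2* CKO arrays, a log2 change of 0.03 (SE 0.28), and 1 other probe set of it had the opposite sign. Of 10 genes of glial reactivity 1 rose and none fell (8 with the block). It was *Cd44*, a hyaluronan receptor, with 146, 67.6 and 65.5 in the control and 224, 281 and 336 in the *Otx2* CKO arrays (log2 change 1.50, SE 0.33, adjusted p = 0.0474). *Stat3*, a transcription factor of cytokine signalling, and *Cp*, ceruloplasmin, had log2 changes of 0.42 and 0.55 (adjusted p = 0.427 and 0.557, 0.0239 and 0.0109 with the block). Calls that ended with 1 array left out were those of *Apoe* without any 1 of 3 arrays (up to adjusted p = 0.111, without *Otx2* CKO array 3), *Hes5* without any 1 of 5 arrays (up to adjusted p = 0.221, without *Otx2* CKO array 3) and *Cd44* without any 1 of 5 arrays (up to adjusted p = 0.214, without *Otx2* CKO array 3). The Muller list counted 4 rises with quantile normalization and 0 with median scaling, and the call of *Hes5* ended with quantile normalization (adjusted p = 0.0932). The list of glial reactivity counted 0 rises with spike scaling.

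A few genes of the oligodendrocyte, extracellular matrix and apoptosis lists rose. *Olig1*, a helix-loop-helix factor of the oligodendrocyte lineage and of retinal progenitors, and *Pdgfra*, the growth factor receptor of oligodendrocyte precursors, were the 2 of 4 tested oligodendrocyte genes that rose (0 lower and 3 higher with the block). *Olig1* had signals of 11.3, 6.04 and 2.26 in the control and 67.9, 106 and 90.6 in the *Otx2* CKO arrays, and *Pdgfra* had 154, 109 and 199 in the control and 463, 437 and 472 in the *Otx2* CKO arrays. *Mbp*, a myelin gene, had means of 158 ± 48.8 and 189.8 ± 18.99 (SD, n = 3 each, adjusted p = 0.683 from limma) with 1 other probe set of the opposite sign, *Cnp* had a log2 change of 0.89 (adjusted p = 0.0905, 0.00486 with the block), and the myelin marker *Mog* stayed below 10 in every array. Of 15 genes of the extracellular matrix 2 rose and none fell (6 and 4 with the block, where the shares of all probe sets were 21.1% and 15.0%). *Col12a1*, a fibril-associated collagen, and *Mfap4*, a microfibril protein, rose from control signals below 30, *Col12a1* to 323, 84.99 and 109 and *Mfap4* to 37.1, 169.7 and 99.2 in *Otx2* CKO arrays 1, 2 and 3. *Sparc* and *Col4a1*, a matrix protein and a basement membrane collagen, had log2 changes of 0.15 and −0.66 (adjusted p = 0.891 and 0.229, 0.00312 for *Col4a1* with the block). Of 14 genes of p53 and apoptosis 2 rose and none fell (6 and 1 with the block), *Bbc3* and *Bid*, a pair of BH3-only killers, 2.62-fold and 2.54-fold, with *Bbc3* at 58.96, 68.2 and 58.8 in the control and 146, 191 and 151 in the *Otx2* CKO arrays. With quantile normalization neither was called (adjusted p = 0.0573 for *Bbc3* and 0.0595 for *Bid*), and the list counted 0 rises with quantile normalization or with median scaling and 1 with spike scaling. When 1 array was left out, calls were lost for *Olig1* without *Otx2* CKO array 3 (adjusted p = 0.0681), *Pdgfra* without any 1 of 3 arrays (up to adjusted p = 0.111, without *Otx2* CKO array 3), *Col12a1* without any 1 of 4 arrays (up to adjusted p = 0.156, without control array 3), *Mfap4* without any 1 of 4 arrays (up to adjusted p = 0.138, without *Otx2* CKO array 3), *Bbc3* without any 1 of 5 arrays (up to adjusted p = 0.128, without control array 3) and *Bid* without any 1 of 5 arrays (up to adjusted p = 0.157, without *Otx2* CKO array 3).

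Of 10 immediate early genes 2 fell and 2 rose (4 lower and 3 higher with the block, against 15.0% and 21.1% of all probe sets). *Ier3*, a stress-induced survival gene, had signals of 709, 2142 and 1355 in the control and 67.7, 106 and 105 in the *Otx2* CKO arrays, and fell 15.1-fold (log2 change −3.59, SE 0.41, adjusted p = 0.00327, limma). *Ier5*, another immediate early response gene, had 161, 357 and 236 in the control and 931, 1634 and 1135 in the *Otx2* CKO arrays, and rose 4.91-fold (log2 change 2.25, SE 0.35, adjusted p = 0.0116). *Ier2* rose 2.93-fold and *Nr4a1*, an orphan nuclear receptor induced by activity, fell 4.68-fold with control array 3 well above the other controls (194, 199 and 546 in the control and 63.3, 64.3 and 73.00 in the *Otx2* CKO arrays). *Egr1*, a zinc finger factor of neuronal activity, had a log2 change of −0.87 (adjusted p = 0.147, 0.00214 with the block), and *Jund* of 0.01 (adjusted p = 0.987). Calls were lost for *Ier5* without any 1 of 2 arrays (up to adjusted p = 0.0753, without control array 3), *Ier2* without any 1 of 4 arrays (up to adjusted p = 0.157, without *Otx2* CKO array 3) and *Nr4a1* without any 1 of 4 arrays (up to adjusted p = 0.167, without *Otx2* CKO array 3). The list counted 1 fall as deposited or with median scaling, and 0 rises with median scaling. As deposited *Nr4a1* had adjusted p = 0.0735. None of the 15 blood vessel genes tested was called without the block, and with it 8 were lower and 1 higher, with a median log2 change of −0.51. The higher gene was *Kdr*, the receptor of vascular endothelial growth factor, with 663, 399 and 287 in the control and 1053, 905 and 814 in the *Otx2* CKO arrays (adjusted p = 0.124 without and 0.000578 with the block). *Rgs5*, a pericyte gene, had a log2 change of −0.03 (adjusted p = 0.99). None of 8 pigment epithelium genes or 3 lens genes was called, and with the block 2 and 1 were higher, near the 21.1% of all probe sets. The pigment list counted 2 rises as deposited (*Dct* and *Tyrp1*, melanin enzymes, the latter chosen after its values were seen), and the vessel list 1 fall with spike scaling (*Esam*, an endothelial adhesion molecule, chosen likewise). Of the genes higher with the block *Dct* had the largest change, with 204, 244 and 344 in the control and 445, 1412 and 914 in the *Otx2* CKO arrays (adjusted p = 0.0859 without and 0.000444 with the block), and *Ttr*, transthyretin of the pigment epithelium, had a log2 change of 0.12 (adjusted p = 0.934). The 3 red blood cell genes with a probe set were below the signal limit.

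**Figure D4:**
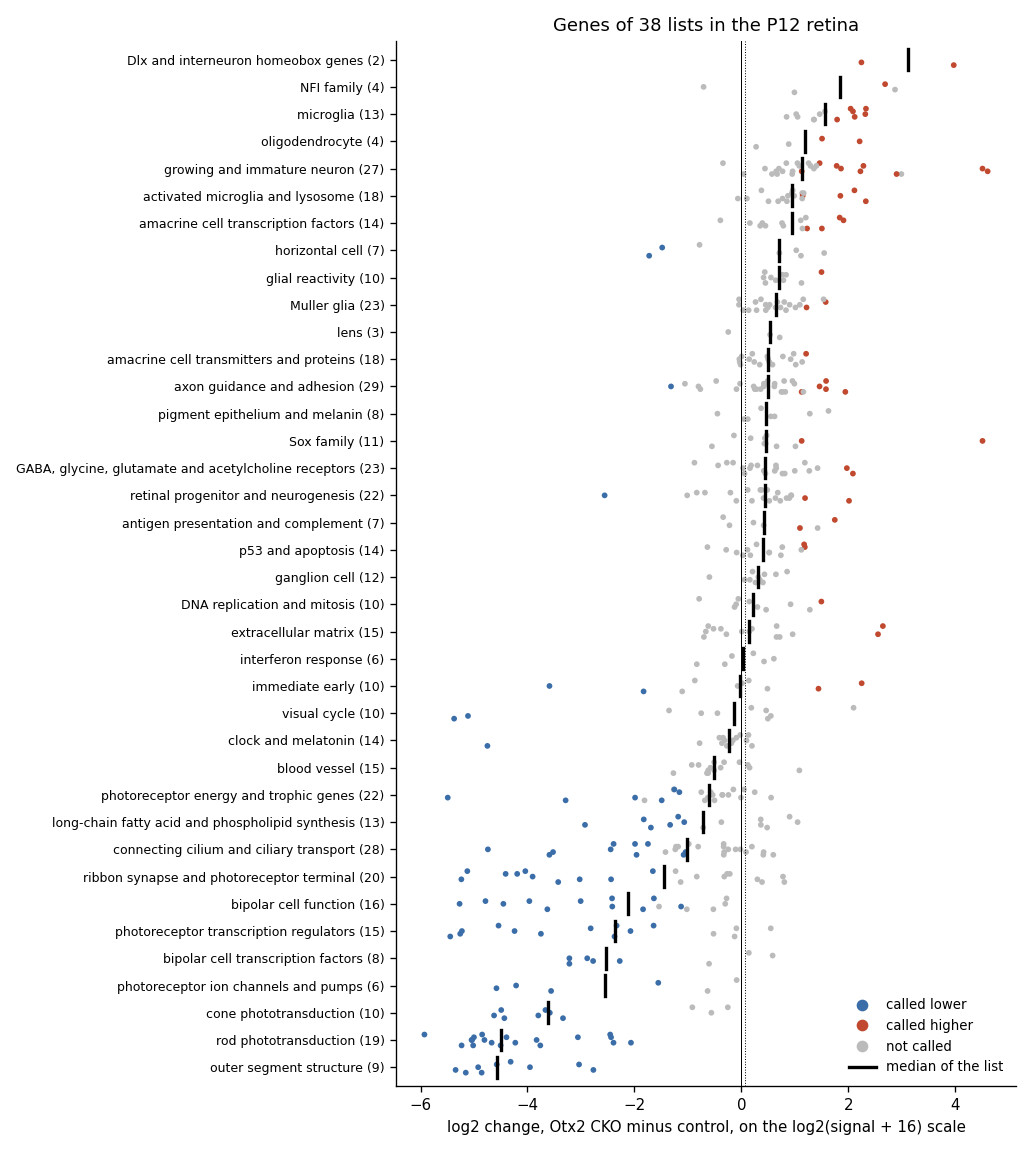
Each point is 1 tested gene of a list at its log2 change between *Otx2* CKO and control (x axis, on the log2(signal + 16) scale), with genes called lower in blue and called higher in red, and lists are ordered by their median (black bar), with the number of genes tested in brackets. Medians run from −4.58 for outer segment structure to 3.11 for the Dlx genes, and the dotted line marks the median of all tested probe sets, 0.08.

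Defining markers of every main retinal cell type were present in the control arrays, and of the bipolar markers *Trpm1* was below the signal limit in both groups. Summed over the markers of a type, photoreceptor and bipolar signals were 21444 to 24703 for rods, 3683 to 6609 for cones and 3056 to 5098 for bipolar cells in the control arrays, and 709 to 1580.2, 157 to 265 and 87.99 to 165 in the *Otx2* CKO arrays. Those of amacrine cells were 4471 to 4893 and 7109.7 to 7510.4. Those of horizontal cells, mostly from *Calb1*, were 444 to 635 and 128 to 193. Sums of Muller glia were 5159 to 8850.0 and 7162 to 10049.7, and of ganglion cells 2440.4 to 3118 and 3146 to 4419. Markers of neighbouring tissue had sums that overlapped between the groups. They were 14.5 to 71.2 and 35.6 to 86.5 for the lens, and 10.4 to 49.3 and 16.1 to 25.4 for red blood cells. The pigment epithelium had 217 to 429 and 330.2 to 848, and its sum was higher in the *Otx2* CKO array of each experiment. Its marker *Tyrp1* did not overlap, with 47.5 to 56.1 and 98.9 to 228. The lens markers *Cryaa* and *Mip* and the red blood cell marker *Hba-a1* were below 20 in every array. The sums of blood vessel markers did not overlap, with 384 to 630.0 and 241 to 316. The pigment sum was highest in *Otx2* CKO array 2, and its part in the results was not tested.

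The measured log2 change with *Otx2* loss differed between P12 and P1 for many probe sets. P1 arrays were dimmer as deposited, with trimmed means of 22.0 to 30.3 against 96.6 to 172 at P12. The same constant was added to the signals of both ages before the log, which understates changes of dim signals and so those at P1 more. A difference can thus pass where the ratios of the signals are equal, and the part of this in the counts was not tested. In a fit of all 12 arrays, with each age scaled by itself so that levels are not comparable across ages, the difference between the genotype effects passed limma's threshold for 1146 of 21248 probe sets (5.39%), with the P12 effect below that at P1 for 801 and above it for 345. With the block 4826 passed, and with 1 trimmed mean for all 12 arrays 733. At both ages a log2 change of at least 0.5 with opposite signs was seen for 7 of the 1146 probe sets, and 4 genes had it on their brightest probe set. They were *Mfap4*, *Grik3*, a kainate receptor subunit, *C2cd4b*, and *Kcne1l*, a potassium channel subunit gene. *Grik3* had P1 signals of 42.96, 30.9 and 19.1 in the control and 8.75, 5.08 and 9.44 in the *Otx2* CKO arrays, and P12 signals of 55.00, 79.2 and 55.4 and 285, 319 and 194. The groups did not overlap at either age, and the genotype effects differed by 2.78, SE 0.34, adjusted p = 0.000416 (log2, limma). *C2cd4b* had control and knockout signals of 27.5, 29.04 and 17.2 and 2.43, 8.93 and 11.3 at P1, and of 20.1, 12.7 and 12.1 and 101, 100.2 and 92.2 at P12, a difference of 2.68, SE 0.28, adjusted p = 0.000132. For *Mfap4* and *Kcne1l* the differences were 3.06, SE 0.52, adjusted p = 0.00422 and 1.85, SE 0.42, adjusted p = 0.0233. Their log2 changes at P1 were not large beside their errors (−0.51, SE 0.37 and −0.60, SE 0.30), and the test does not cover the sign at P1. The errors and adjusted p of this fit rest on 1 variance for each probe set over both ages. P12 arrays scattered more than P1 arrays, so an error can be too wide at P1 and too narrow at P12. The P1 signals of these genes were below 70 in every array, and *Kcne1l* lost its call without any 1 of 6 arrays (up to adjusted p = 0.0741, without P1 *Otx2* CKO array 3).

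**Figure D5:**
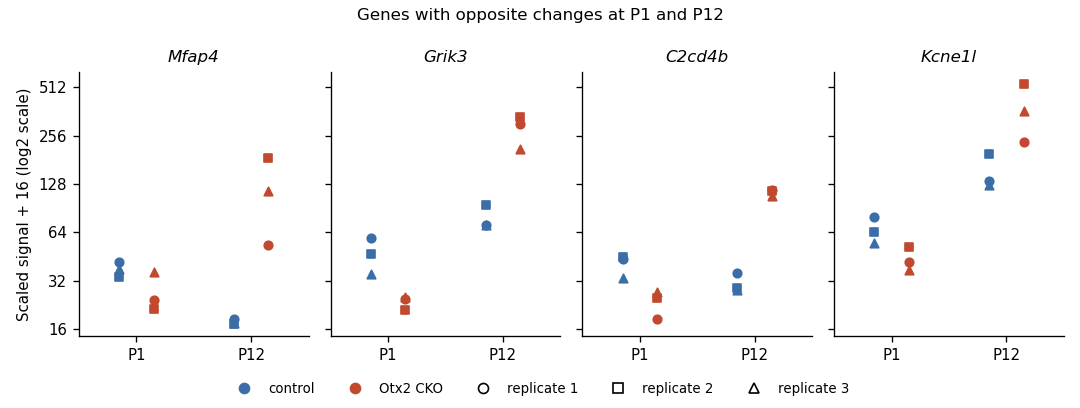
Scaled signals plus 16 (y axis, log2 scale) of 4 genes in the control (blue) and *Otx2* CKO arrays (red) at P1 and P12, with the replicate number as the symbol. At P12 all *Otx2* CKO arrays are above the control arrays, and at P1 the *Otx2* CKO arrays are lower apart from 1 array of *Mfap4* that lies between the control arrays.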

How the data were processed

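Total RNA of whole retinas was labelled by the authors in a single cycle of cDNA synthesis and hybridised to Affymetrix mouse whole-genome arrays, 1 array for each sample. The deposited values are linear signal intensities for each probe set, computed by the authors with the array maker's software. Neither detection calls nor scanner files were used here, and how the authors scaled the arrays is not given in the sources used here. Arrays at P12 were scaled to a common 2% trimmed mean, 45101 probe sets were reduced to 45037 by leaving out 64 control probe sets, and those with a mean of at least 50 in either group were tested on log2(signal + 16) with limma 3.58.1 in R 4.3.3 (lmFit and eBayes with trend, Benjamini-Hochberg adjustment, 6 arrays in the fit). No arrays held identical values.

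Probe sets were named from the platform table and updated through Entrez identifiers. Of the probe sets 34958 had 1 symbol (34754 matched by Entrez identifier), 932 had several and 9211 were unnamed here. A gene stands for its brightest probe set. Genes named in the text were the 12 largest falls and rises among called probe sets without overlap between the groups, up to 4 called members of a gene list in each direction (up to 8 for transcription factors) the 2 brightest members not called, and genes with opposite changes of at least 0.5 (log2) at the ages. Genes of the promoters shown, markers and genes given as absent or below the limit were added to these. The 39 lists held 705 genes, of which 652 had a probe set named here and 507 were tested. Members and lists were chosen with earlier results of these data known.

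Experiment numbers come from the titles and were checked as pairs. Deviations from the group means correlated by 0.83, 0.88 and 0.55 between arrays of the same number and by −0.79 to 0.04 between arrays of different numbers, so the numbers were taken to pair the arrays. The fit with this block is given beside a result where it changes the call. It has fewer residual degrees of freedom (2 in place of 4) and a smaller median moderated SD (0.20 in place of 0.38 on the log2 scale). The fits with and without the block were tested on simulated data. Alternatives covered scaling (signals as deposited, quantile normalization, median scaling to the median signal of each array, spike scaling to its hybridization spikes), offset, signal limit, block, arrays in the fit and arrays left out. Promoter sequences are those of RefSeq for GRCm38.p6, searched on both strands.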

Additional observations from a re-analysis of the deposited data

Results flagged for a closer look

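The genotype effects at P12 and P1 differed in limma's test and had opposite signs for 4 genes. The test covers the difference and not the sign at P1. Log2 changes at P1 were −0.51 (SE 0.37) for *Mfap4*, −0.96 (SE 0.24) for *Grik3*, −0.79 (SE 0.20) for *C2cd4b* and −0.60 (SE 0.30) for *Kcne1l*. The P12 minus P1 difference on the log2 scale was 3.06 for *Mfap4*, 2.78 for *Grik3*, 2.68 for *C2cd4b* and 1.85 for *Kcne1l*. *Mfap4* was at the floor of the arrays in all P12 controls (2.52, 1.25 and 1.43) and had 37.1, 169.7 and 99.2 in the P12 *Otx2* CKO arrays, against 26.2, 17.7 and 22.02 and 8.26, 5.46 and 20.1 at P1. *Kcne1l* had 118, 182 and 111 and 218, 517 and 346 at P12, against 64.3, 48.4 and 38.6 and 25.9, 35.8 and 21.5 at P1. Nearly all P1 signals of these genes were below the limit of 50, where arrays resolve little.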

How the results depend on the processing

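Against 774 probe sets lower and 368 higher, limma called 438 lower and 377 higher as deposited, 193 higher with median scaling and 232 higher without the signal limit. Higher calls were thus 32.2% of all calls after scaling, 46.3% as deposited and 58.4% with the block. All 12 arrays in 1 fit gave 1801 lower and 1789 higher. The replicate block gave 3171 lower and 4458 higher. Signal limits and a log2 change of at least 1 without a test gave 1238 and 1055. Without any 1 array, in fits without the block, the counts ranged from 342 to 753 lower and from 64 to 347 higher. Chosen after seeing the data, leaving out both arrays of an experiment gave 0 to 590 lower, with 418 without experiment 1, and 0 to 205 higher, with 108 without experiment 1, and 0 without experiment 3 in both directions. Quantile normalization with the block gave 3266 lower and 4324 higher, and signals as deposited with the block 1102 lower and 4404 higher.

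Named genes were followed on 184 probe sets, with more than 1 for some genes. None of the 114 called changed direction under any alternative. They were chosen for large changes in these same arrays, and some alternatives leave the log2 change as it was. This count is therefore a description only. Of the 70 not called, 25 took the opposite sign under at least 1 alternative, 12 of them as deposited (*Slc24a2*, *Rorb*, *Clcn3*, *Ckb*, *Dbp*, *Gnao1*, *Gad1*, *Car2*, *H2-K1*, *Pcna*, *Rgs5* and *Crybb3*). Calls were lost for 25 named genes with median scaling, 16 without the signal limit, 10 with spike scaling (*Dcx*, *Neurod1*, *Satb1*, *Dab1*, *Hes5*, *Cd44*, *Serping1*, *Plxna2*, *Nrp1* and *Bid*), 8 as deposited (*Neurod1*, *Adipor1*, *Elovl4*, *Dab1*, *Lhx1*, *Calb1*, *Plxna2* and *Nr4a1*), 8 with an offset of 1 and 5 with quantile normalization (*Hes5*, *Serping1*, *Plxna2*, *Bbc3* and *Bid*). Those lost with median scaling were *Atp1b2*, *Ldha*, *Agpat3*, *Adipor1*, *Elovl4*, *Tfap2c*, *Pax6*, *Dab1*, *Calb1*, *Apoe*, *Hes5*, *C1qb*, *Ctss*, *Serping1*, *Plxna2*, *Slit1*, *Efnb2*, *Notch1*, *Mcm7*, *Sox4*, *Bbc3*, *Bid*, *Nr4a1*, *Ier5* and *Ier2*. Of the 114, 68 kept their call without any 1 array and all 114 with the block, which added 41 of the 70 and changed no other call. The counts with 1 array left out were lowest without control array 3 or *Otx2* CKO array 3, and the cause was not tested. The difference between the ages was called for 1146 probe sets, for 733 with 1 trimmed mean for 12 arrays, for 4826 with the block, and for 723 to 1490 without any 1 array, with 723 without P1 control array 3.

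The median of the visual cycle list was −0.13, ranged from −0.51 to 0.22 without any 1 array, and was above 0 without control array 2 (0.22) and *Otx2* CKO array 1 (0.15). That of the extracellular matrix list was 0.15, ranged from −0.12 to 0.41, and was below 0 without control array 1 (−0.07) and *Otx2* CKO array 2 (−0.12). As deposited, the remaining signal was 5.62% for cone genes (4.19% after scaling, the median over genes of the mean of 3 arrays) and 3.07% for outer segment genes (2.39%). The share of promoters of lowered genes with TAATCC, 13.6%, was 18.3% as deposited, 8.21% with the block, 8.10% with quantile normalization and the block, 10.1% with 12 arrays, 14.9% to 19.9% without any 1 array and 17.98% without experiment 1. It fell where more genes were called. The number of arrays, and signals near the floor, limit what could be called.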
